A study of Homo sapiens with 6 samples.

Results

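PANC-1, a line established from a human pancreatic carcinoma, secretes and displays many of the glycoproteins that make up basement membranes and the surrounding matrix, and 48 genes for such products were compared between cells with and without silencing of ZDHHC20, a palmitoyl acyltransferase that attaches fatty acids to proteins. The 48 genes were listed by name and not by their values, but the list was made with earlier results of these data known. They comprise laminin chains, nidogens, basement membrane proteoglycans, elastic fibre and matricellular glycoproteins, secreted small proteoglycans, syndecans, glypicans and the hyaluronan receptor CD44. Of the 48, 43 had a row among the 27394 genes of the table, and 42 of these averaged 1 or more over the 6 libraries and were tested together with the other genes that did so, 22189 in all. FBN2, POSTN, SPP1, DCN and GPC3 were not analysed here, and FBLN5, with a single value above 0, 4.02 in shControl replicate 2, was below the limit.

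The shControl group carried a control shRNA and the shZDHHC20 group an shRNA against ZDHHC20, with 3 libraries each, and all 6 libraries came from the same line grown in the same serum-containing medium. The labels name no clone, no time after infection and no shRNA sequence, and which of the gene-specific shRNAs of the study was used is not stated for these libraries, so that an effect of 1 hairpin on other transcripts and an effect of silencing cannot be told apart. The labels do not say whether the 3 libraries of a group came from separate cultures, and the p-values measure the spread between these libraries, which may be technical. Values are called normalized counts, since they rise in even steps within a library as read counts divided by 1 factor do, and they are not divided by gene length.

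Laminins are heterotrimers of an alpha, a beta and a gamma chain that polymerize on the cell surface through integrins and dystroglycan and form the scaffold of a basement membrane. Nidogens join the laminin layer to type IV collagen, and the heparan sulfate proteoglycans perlecan and agrin fill and anchor it. Syndecans and glypicans carry heparan sulfate on the cell surface, whereas matricellular proteins such as SPARC and tenascin-C modify how cells attach to the matrix without being structural parts of it.

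ZDHHC20 itself was at 2001, 2033 and 1940.4 in shControl replicates 1, 2 and 3 and at 872, 779 and 893 in shZDHHC20 replicates 1, 2 and 3, which was 42.6% of the control mean (log2 fold change -1.23, adjusted p = 4.36e-07, limma). The normalized counts summed to between 17083277 and 18007664 per library. On the log2 scale, over 4136 genes with a mean of at least 1000, shZDHHC20 replicate 2 stood apart from the other libraries of its group, with an SD of differences of 0.178 from replicate 1 and 0.198 from replicate 3, whereas the other pairs within a group had 0.0674 to 0.0722 and pairs across the groups 0.211 to 0.240. Counts of calls without this library are therefore given beside the counts below. The ductal and carcinoma markers were detected as 8 of 8 listed genes and summed to 163400 to 166700 in shControl and 155700 to 158100 in shZDHHC20, with SOX9 lower (log2 fold change -0.33, adjusted p = 0.00146) and none of the other 7 past the test. Of fibroblast, endothelial, immune and acinar or endocrine markers, 5 of 9, 5 of 7, 4 of 7 and 1 of 7 had a row. The fibroblast list summed to 3995 to 4064 in shControl and 3203 to 3490 in shZDHHC20, almost all of it COL1A1. The other lists were low in both groups, at 180 to 191 and 124 to 161 for endothelial, 26.0 to 39.2 and 24.4 to 49.8 for immune and 0 to 2.002 and 1.92 to 8.45 for acinar and endocrine markers, and the part of these lists in the results was not tested.

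Of the 42 tested members, 11 differed between the groups at an adjusted p under 0.05 in limma's moderated test. NID1, SDC4 and TNC were higher with silencing, and LAMA5, LAMB1, HSPG2, AGRN, SPARC, SPOCK1, EFEMP2 and SDC3 were lower. Over all genes tested, 4.61% were called higher and 6.84% lower, beside 7.14% and 19.0% of the members. The members' median log2 fold change was -0.078, beside 0.0132 over all genes tested. In 22 of the 42 members, 52.4%, the libraries of the groups did not overlap, beside 28.6% of all genes tested. Without shZDHHC20 replicate 2 these shares were 59.5% and 44.1%. Only TNC met the criteria used in the study, an unadjusted p under 0.01 with a change of at least 1.5-fold, beside 2.45% of all genes tested.

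All 11 calls fell among the 23 members with a mean of at least 100, a limit chosen after the values were seen. Of these 23, 13% were called higher and 34.8% lower, beside 8.41% and 13.3% of the 10910 genes with such a mean, and 19 of the 23 had a negative log2 fold change. The median was -0.155 among them and -0.0118 among all genes of that level. Of the 19 tested members with a lower mean, 0 were called, and of the 2541 genes called in all, 2364 were among the 10910. In the same limma fit 4 of the 19 had an unadjusted p under 0.05. Over all 22189 genes tested 5286 did, and 4257 of these were among the 10910. The libraries of the groups did not overlap in 5 of the 19, 26.3%, beside 6347 of the 22189 genes tested, 28.6%. Of these 6347 genes, 4649 were among the 10910, so that neither comparison is matched to the level of the 19. The number called depended on the libraries. Without shZDHHC20 replicate 2, 3 members were called higher and 11 lower (7.14% and 26.2%, beside 8.55% and 10.7% of all genes tested), with CD44, GPC1 and THBS3 added. Leaving out shControl replicate 1, 2 or 3 or shZDHHC20 replicate 1 left 3 members lower. With these omissions, in that order, the lower calls over all 22189 genes fell from 1517 to 652, 718, 641 and 822. Without shControl replicate 1, 1 member was called higher, beside 384 of the 22189 genes tested.

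**Figure D1:**
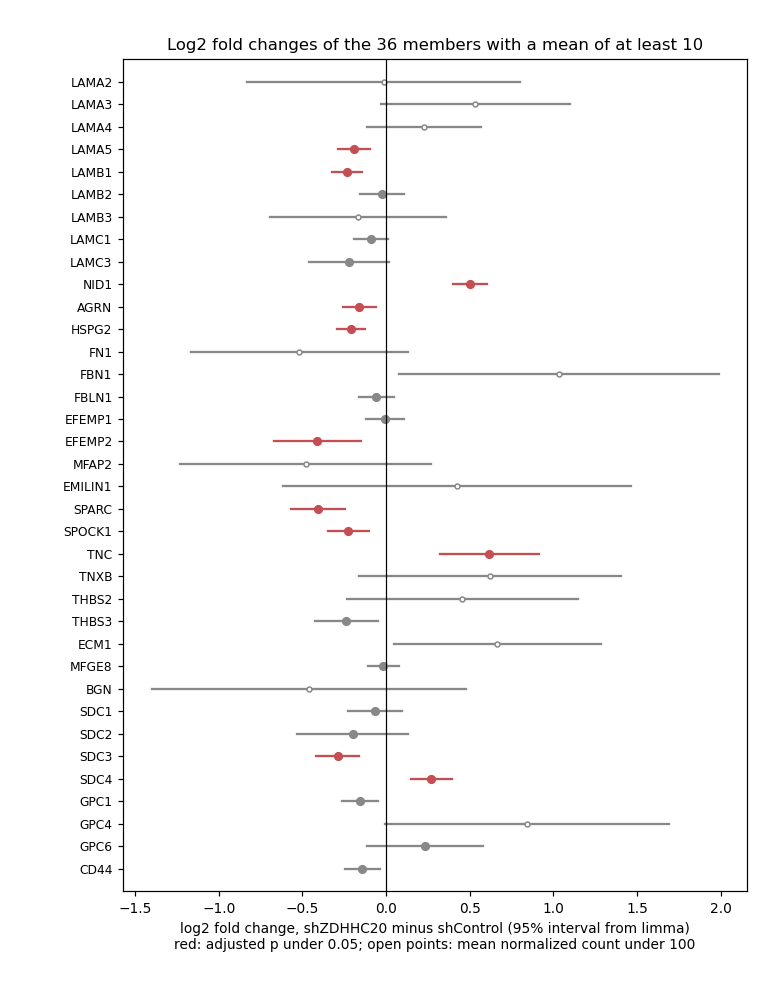
Log2 fold change of shZDHHC20 minus shControl (horizontal axis, points) with the 95% interval from limma (lines) for the 36 members whose mean normalized count reached 10. Red points are the 11 members with an adjusted p under 0.05 and open points have a mean under 100. The red points lie between -0.41 (EFEMP2, SPARC) and 0.62 (TNC), and the intervals of the open points are wide.

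Among the laminin alpha chains, PANC-1 cells expressed LAMA5, the chain of laminins common in adult epithelial basement membranes, far above the others. Its normalized counts were at 16844, 16622 and 16859.6 in shControl replicates 1, 2 and 3 and at 14269, 15509.8 and 14349.6 in shZDHHC20 replicates 1, 2 and 3. Every shZDHHC20 library lay below every shControl library, with replicate 2 nearest to the controls, and the log2 fold change was -0.19 with a standard error of 0.0439 and an adjusted p = 0.0128. The call was lost without shControl replicate 1, 2 or 3 (adjusted p = 0.102, 0.0764 and 0.105) and without shZDHHC20 replicate 1 (0.0984), and under quantile normalization the log2 fold change was -0.093 (adjusted p = 0.196). LAMA4, found in vascular and mesenchymal basement membranes, ranged from 73.3 to 87.9 in shControl and from 83.7 to 99.6 in shZDHHC20. LAMA3, the alpha chain of the anchoring laminin of skin and other epithelia, ranged from 31.0 to 40.2 and from 36.0 to 66.7. Neither passed the test (adjusted p = 0.431 and 0.238), and both had overlapping libraries. LAMA2, the chain of muscle laminin, was at 11.5 to 22.5 over all libraries and LAMA1 at 0.939 to 5.02.

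LAMB1, the widespread beta chain, had the smallest p among the laminins. It was at 7272, 7334 and 7397 in shControl replicates 1, 2 and 3 and at 6213, 6153 and 6347 in shZDHHC20 replicates 1, 2 and 3. The groups were separated by a gap several times the spread within either, and the log2 fold change was -0.23 with a standard error of 0.0419 and an adjusted p = 0.00275, a level of 85.05% of control. The call held with each library left out in turn (adjusted p from 9.66e-05 to 0.0396). LAMB2, the beta chain of neuromuscular and kidney basement membranes, was at 3209, 3076 and 3275 in shControl and at 3008, 3438 and 2977 in shZDHHC20. Its groups overlapped, with the highest value in shZDHHC20 replicate 2, and the interval of its log2 fold change ran from -0.15 to 0.11 (adjusted p = 0.865). LAMB3, which pairs with LAMA3, ranged from 40.4 to 78.1 over all libraries with no separation.

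Of the gamma chains, LAMC1, the partner in most laminins, was at 5876, 6119 and 5840.1 in shControl and at 5705, 5320.2 and 5746 in shZDHHC20. The groups did not overlap, but the difference did not pass the test (log2 fold change -0.089, adjusted p = 0.283). LAMC3 was at 245, 212 and 213 in shControl and at 205, 178 and 191 in shZDHHC20, also with no overlap and without passing (log2 fold change -0.22, adjusted p = 0.243).

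Because laminins are assembled from 1 chain of each class, the alpha and beta chains were also compared as shares of their class, with normalized counts divided by the length of the annotated exons. LAMA5 made up 99.1% ± 0.0770 in shControl and 98.7% ± 0.0671 in shZDHHC20 of the alpha chains (SD, n = 3 libraries). LAMB1 made up 65.3% ± 0.764 in shControl and 62% ± 1.98 in shZDHHC20 of the beta chains, and LAMB2 33.7% ± 0.625 in shControl and 36.97% ± 2.29 in shZDHHC20. The libraries did not overlap for LAMA5, LAMB1 and LAMB2 (two-sided exact permutation test, p = 0.1 for each). With 3 libraries against 3 this test cannot go below 0.1, which is 0.21 after Benjamini-Hochberg adjustment over the 21 shares computed for laminins, syndecans and glypicans, of which 10 were at 0.1. In both groups, LAMA5 and LAMB1 were the leading chains of their classes.

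NID1, the nidogen that binds the laminin gamma chain and type IV collagen, was the member with the smallest p and ran against most of the other basement membrane genes. It was at 3690.2, 3659.9 and 3658 in shControl replicates 1, 2 and 3 and at 5268, 4986 and 5352 in shZDHHC20 replicates 1, 2 and 3. All 3 libraries with silencing lay far above the controls, at 142% of their mean, and the log2 fold change was 0.50 with a standard error of 0.0467 and an adjusted p = 2.08e-05. NID1 was past the threshold under each of the 15 alternatives of the fit, with log2 fold changes from 0.48 to 0.53 and a highest adjusted p = 0.0408. Per exon length, NID1 went from 626 ± 3.06 to 887 ± 32.7 normalized counts per kb, and from rank 9 to rank 5 among the 43 members of the table. In GENCODE 29 on GRCh38 the gene lies at chr1:235975830-236065162 on the minus strand, with no overlap of its exons with those of another gene. NID2, the related nidogen, was near the limit of detection, with 0 to 7.01 over all libraries, so that only NID1 could be measured well.

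HSPG2 encodes perlecan, a large heparan sulfate proteoglycan of basement membranes. It was at 16135, 15665 and 15819 in shControl replicates 1, 2 and 3 and at 13880.2, 13582 and 13714 in shZDHHC20 replicates 1, 2 and 3. The silenced libraries were closely grouped below the controls, and the log2 fold change was -0.21 with a standard error of 0.0393 and an adjusted p = 0.00366. Without shControl replicate 1 the adjusted p was 0.0555, and under quantile normalization the log2 fold change was -0.11 (adjusted p = 0.0720). AGRN, which encodes agrin, was at 12133, 11586 and 11838 in shControl and at 10592, 11120.3 and 10116 in shZDHHC20. It lay lower in every silenced library but only just past the threshold (log2 fold change -0.16, adjusted p = 0.0387), and the call was lost without each of the libraries except shZDHHC20 replicate 2 (adjusted p from 0.113 to 0.206), and without that library the adjusted p was 4.94e-04. Summed per exon length over the 14 laminin, nidogen, perlecan and agrin genes, the level was 5906 ± 44.9 normalized counts per kb in shControl and 5601 ± 48.7 in shZDHHC20.

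The ratio of NID1 to LAMC1, its binding partner in the laminin trimer, was 0.900, 0.857 and 0.898 per exon length in shControl and 1.32, 1.34 and 1.34 in shZDHHC20. This ratio was chosen after the values were seen and is given without a test. Relative to its mean, it varied less between the 3 silenced libraries than NID1 itself did, and shZDHHC20 replicate 2 did not stand apart in it. In shControl the ratio varied more than NID1, with an SD of 0.0241 around 0.885 against 17.9 around 3670.

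**Figure D2:**
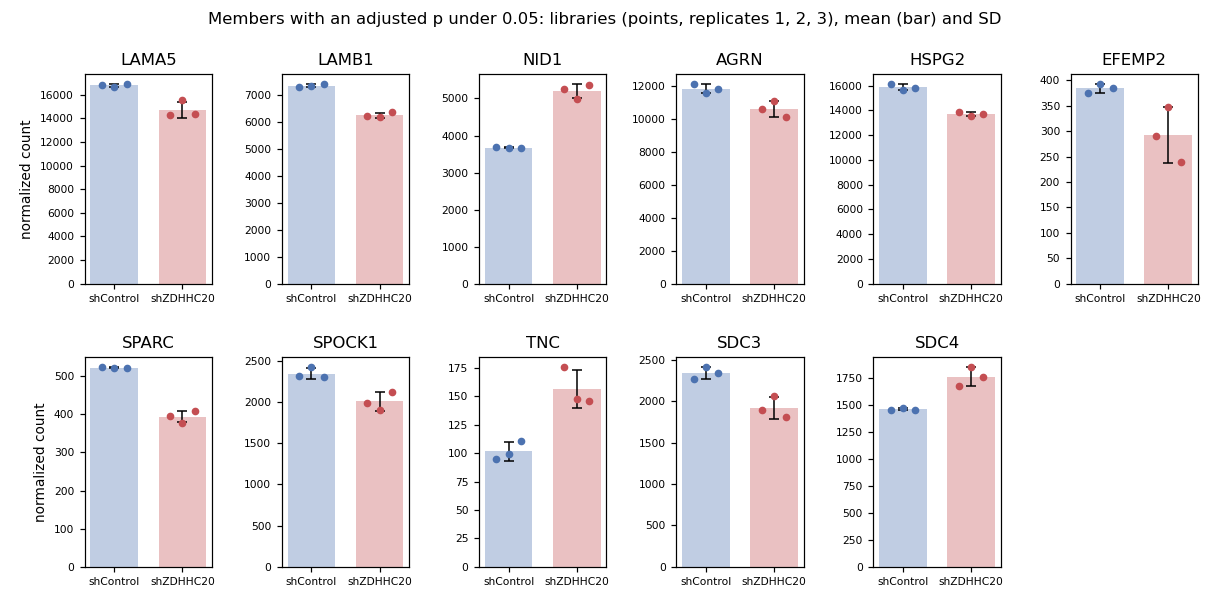
Normalized counts (vertical axes, starting at 0) of the 11 members with an adjusted p under 0.05 in each library (points, replicates 1, 2 and 3 from left to right), with group means (bars) and SDs (lines). NID1, TNC and SDC4 stand higher in shZDHHC20, the other 8 lower, and no gene has overlapping groups.

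Fibronectin, the fibrillins and the fibulins form the fibrillar and elastic part of the matrix, and 1 of the 8 tested passed the test. EFEMP2, a fibulin needed for elastic fibre assembly, was at 375, 393 and 384 in shControl and at 290.4, 347 and 239 in shZDHHC20. All silenced libraries were lower but differed widely among themselves, and the log2 fold change was -0.41 with a standard error of 0.120 and an adjusted p = 0.0416. The call was lost without each of the libraries except shZDHHC20 replicate 2 (adjusted p from 0.147 to 0.174), and without that library it was 0.00195. EFEMP1, the related fibulin, was at 2989, 3117 and 2976 in shControl and at 3045, 2852 and 3158 in shZDHHC20, with overlapping groups and an interval of the log2 fold change from -0.12 to 0.11. FBLN1, a fibulin of basement membranes and elastic fibres, was at 2900.0, 2764 and 2898 in shControl and at 2730.5, 2731 and 2748 in shZDHHC20, and this small separation did not pass the test (log2 fold change -0.060, adjusted p = 0.499). FN1, the fibronectin gene, was at only 28.3 to 31.1 in shControl and 16.4 to 28.6 in shZDHHC20 (adjusted p = 0.328). FBN1, which encodes the main microfibril protein, was at 8.01 to 9.09 and 10.6 to 24.4 with no overlap (adjusted p = 0.172). MFAP2, EMILIN1 and FBLN2 ranged from 15.97 to 47.2, from 6.01 to 23.1 and from 0 to 4.24, each with overlapping groups.

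Among the matricellular and other secreted glycoproteins, the calls went in both directions. SPARC, a collagen-binding protein that counteracts cell spreading, was at 524, 522 and 522 in shControl replicates 1, 2 and 3 and at 395, 378 and 409 in shZDHHC20 replicates 1, 2 and 3. The controls agreed to within an SD of 1.47, and the log2 fold change was -0.41 with a standard error of 0.0756 and an adjusted p = 0.00344, a level of 75.4% of control. The call held with each library left out in turn (adjusted p from 0.00187 to 0.0317). SPOCK1, a secreted proteoglycan of the SPARC family, was at 2312, 2425 and 2298 in shControl and at 1993, 1902 and 2123 in shZDHHC20. It too was lower in every silenced library (log2 fold change -0.23, adjusted p = 0.0200), and the call was lost without shControl replicate 1, 2 or 3 (adjusted p = 0.0930, 0.123 and 0.0874) or shZDHHC20 replicate 1 (0.0945).

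TNC, which encodes tenascin-C, a glycoprotein prominent in tumour stroma and healing wounds, had the largest log2 fold change of the 11 called members, from a low level. It was at 94.98, 99.4 and 111 in shControl replicates 1, 2 and 3 and at 176, 147 and 146 in shZDHHC20 replicates 1, 2 and 3. The lowest silenced library was above the highest control, and the log2 fold change was 0.62 with a standard error of 0.137 and an adjusted p = 0.0103, or 154% of control. The call was lost without shControl replicate 1 or 2 (adjusted p = 0.0692 and 0.0587) and without shZDHHC20 replicate 1 (0.0718). TNC stayed far below SPARC per exon length, at 10.6 against 108 normalized counts per kb in shControl and 16.3 against 81.6 in shZDHHC20. The TNC to SPARC ratio, chosen after the values were seen and not tested, was 0.0908, 0.0954 and 0.107 in shControl and 0.223, 0.195 and 0.179 in shZDHHC20.

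MFGE8, a secreted glycoprotein that binds phosphatidylserine and integrins, was the highest member per exon length in both groups. It was at 23491, 22660.2 and 23926 in shControl replicates 1, 2 and 3 and at 22721, 24081 and 22423 in shZDHHC20 replicates 1, 2 and 3. The groups overlapped, and the interval of its log2 fold change ran from -0.11 to 0.075. THBS3, a thrombospondin, was at 492, 504 and 488 in shControl and at 407, 469.6 and 385 in shZDHHC20 with no overlap (adjusted p = 0.106), and without shZDHHC20 replicate 2 it passed the test (log2 fold change -0.32, adjusted p = 0.00653). The thrombospondins THBS2 and THBS4 were low, at 14.1 to 19.1 against 21.2 to 26.0 and at 1.004 to 4.04 against 6.74 to 11.7 (shControl against shZDHHC20), and neither passed the test. ECM1 and TNXB ranged from 20.1 to 48.8 and from 14.02 to 30.7, with overlapping groups.

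Of the secreted chondroitin, dermatan and keratan sulfate proteoglycans, BGN, which encodes biglycan, was at 10.1 to 17.1 in shControl and 7.42 to 12.5 in shZDHHC20, and VCAN, which encodes versican, was at 0 to 3.01 over all libraries. LUM, which encodes lumican, was 0 in each shControl library and was at 3.18, 0.939 and 2.89 in shZDHHC20, and it passed the filter only through the silenced group. COL1A1, which made up most of the fibroblast marker sum, was at 3953, 3958 and 3882 in shControl and at 3376, 3113 and 3291 in shZDHHC20 and was lower with silencing (log2 fold change -0.27, adjusted p = 0.00288). All libraries came from the PANC-1 line. In bulk RNA, fewer PANC-1 cells expressing a gene and less of its RNA per cell cannot be told apart.

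Windows of 300 bases around the annotated start were taken from RefSeq (GRCh38.p14) for 34 of the 42 tested members and searched on both strands for CACGTG (E-box), TGANTCA (AP-1) and GGAATG (TEAD). The E-box was in 1 of 34 windows (2.94%), beside 9.68% of 13085 windows of tested genes, the AP-1 letters in 3 (8.82%), beside 5.04%, and the TEAD letters in 5 (14.7%), beside 11.1%. Of the 9 called members with a window, 6 lower and 3 higher, only SPARC held a match, to the TEAD letters read on the other strand, 17 bases before its start. The sole E-box was that of THBS4, 39 bases before its start. Both are shown with the match in capitals, at chr5:151686918-151686941 (minus strand) and chr5:79991284-79991307 (plus strand), and a match describes letters and not binding.
SPARC: acccctccaCATTCCcgcggtcct
THBS4: aatttccggCACGTGaaacgcggg

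The syndecans, transmembrane proteoglycans that act as co-receptors for growth factors and matrix, moved apart. SDC4, the syndecan of focal adhesions, was at 1456, 1472 and 1454 in shControl replicates 1, 2 and 3 and at 1675, 1852 and 1761 in shZDHHC20 replicates 1, 2 and 3. Its 3 silenced libraries were above the controls, and the log2 fold change was 0.27 with a standard error of 0.0569 and an adjusted p = 0.00770. SDC3, described mainly in neural and muscle tissue, was at 2275, 2414 and 2338 in shControl replicates 1, 2 and 3 and at 1893, 2060.5 and 1804 in shZDHHC20 replicates 1, 2 and 3. It was lower in every silenced library, and the log2 fold change was -0.29 with a standard error of 0.0595 and an adjusted p = 0.00673. The SDC4 call was lost without shControl replicate 1 or 3 (adjusted p = 0.0585 and 0.0607), and the SDC3 call without shControl replicate 2 or 3 or shZDHHC20 replicate 1 (0.0648, 0.0597 and 0.0522). SDC1, the main epithelial syndecan, was at 996, 1041 and 1144 in shControl and at 987, 1107 and 945 in shZDHHC20, and SDC2, the syndecan of mesenchymal cells, was at 229 to 251 in shControl and 168 to 275 in shZDHHC20, both with overlapping groups.

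Per exon length, SDC4 made up 45.2% ± 0.918 in shControl and 52.9% ± 0.783 in shZDHHC20 of the syndecan total, and SDC3 26.8% ± 0.511 in shControl and 21.3% ± 0.803 in shZDHHC20. SDC1 made up 23.8% ± 1.33 in shControl and 22.1% ± 0.991 in shZDHHC20. In each of these 3 the groups did not overlap, and the exact permutation p was at its floor of 0.1. The SDC4 to SDC3 ratio, chosen after the values were seen, was 1.73, 1.65 and 1.68 in shControl and 2.39, 2.43 and 2.64 in shZDHHC20.

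Glypicans are anchored in the membrane by a lipid. GPC1, the leading glypican here and one raised in many pancreatic cancers, was at 2307, 2337 and 2258 in shControl and at 2044, 2118 and 2036 in shZDHHC20. The groups did not overlap, but the difference missed the threshold (log2 fold change -0.16, adjusted p = 0.0669) and passed it without shZDHHC20 replicate 2 (adjusted p = 0.00590). GPC6 was at 111 to 174 in shControl and 149 to 181 in shZDHHC20, and GPC4 at 8.03 to 21.0 and 24.4 to 31.0, and neither passed. GPC1 made up 87.2% ± 1.52 in shControl and 87.5% ± 2.0 in shZDHHC20 of the glypican total per exon length (exact permutation test, p = 0.8). GPC2, which is no member, was at 93.97, 103 and 99.1 in shControl and at 32.9, 77.01 and 46.2 in shZDHHC20 (log2 fold change -1.01, adjusted p = 0.0210).

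CD44, the hyaluronan receptor and a widely used marker of carcinoma stem cells, was the second highest member per exon length. It was at 15034, 15537 and 15417 in shControl replicates 1, 2 and 3 and at 14213, 12957 and 14537 in shZDHHC20 replicates 1, 2 and 3. All silenced libraries were lower, with replicate 2 the lowest, and the difference missed the threshold (log2 fold change -0.14, adjusted p = 0.0785). Without replicate 2 of shZDHHC20, the log2 fold change shrank to -0.093 while the adjusted p fell to 0.0132.

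**Figure D3:**
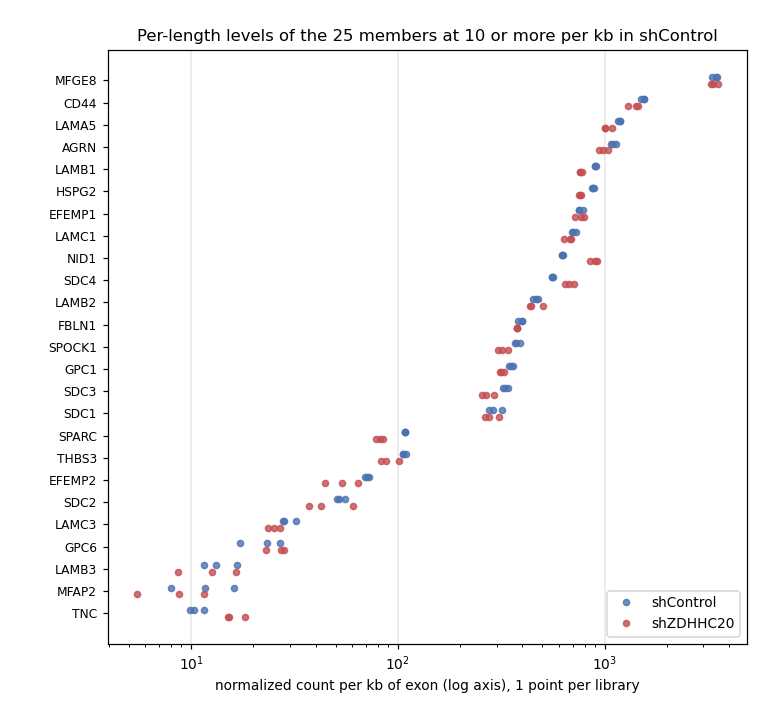
Normalized count per kb of annotated exon (horizontal log axis) in each library for the 25 members at 10 or more in shControl, ordered by the shControl mean, with blue points for shControl and red points for shZDHHC20. MFGE8 leads at 3417 and 3375, and NID1 lies at 626 and 887, above LAMB1, HSPG2, EFEMP1 and LAMC1 only in shZDHHC20.

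Among the members described by library, annotated exons overlap those of genes on the opposite strand for LAMA5 (ADRM1, LAMA5-AS1), LAMB1 (DLD), HSPG2 (LDLRAD2), SPARC (CLMAT3), TNC (DEC1), EFEMP2 (MUS81), THBS3 (MTX1) and CD44 (CD44-AS1), and among the low members for LAMA1, LAMA2, LAMA4, NID2, TNXB, THBS4, VCAN and GPC6. The labels give a strand-specific library kit, but whether the counting used strand is not stated, and their values could include reads of these partners. NID1, SDC3, SDC4, SPOCK1 and LAMC1 have no such overlap, and AGRN overlaps a noncoding gene on its own strand.

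The receptors and enzymes around these products were described from lists, whose counts are to be read beside the 4.61% higher and 6.84% lower of all genes tested, or the 8.55% and 10.7% without shZDHHC20 replicate 2. Of 7 receptors for laminin and dystroglycan ligands, 1 was called higher and 2 lower (14.3% and 28.6%), and the counts were the same without shZDHHC20 replicate 2. BCAM, a laminin receptor of the immunoglobulin family, was at 692, 655 and 674 in shControl and at 517, 535 and 501 in shZDHHC20 (log2 fold change -0.38, adjusted p = 0.00341). ITGA3, an integrin chain for laminin, was at 15479, 15290.3 and 15714 in shControl and at 13504, 14064 and 13634 in shZDHHC20 (log2 fold change -0.17, adjusted p = 0.0128), and its partner ITGB1 was at 27059, 27104 and 27342 in shControl and at 32115, 28868 and 33306 in shZDHHC20 (log2 fold change 0.21, adjusted p = 0.0171). The 2 chains of this receptor differed in opposite directions, and the highest ITGB1 values were in shZDHHC20 replicates 1 and 3.

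Of 20 tested receptors for other matrix glycoproteins, 0 were called higher and 6 lower (0% and 30%), with a median log2 fold change of -0.147. In the limma fit 8 of the 20 had an unadjusted p under 0.05 in either direction, beside 5286 of the 22189 genes tested. Without shZDHHC20 replicate 2, 1 was called higher and 5 lower. ITGB5, a chain of a vitronectin receptor, was at 7570.4, 7386 and 7566 in shControl and at 4531, 4734 and 4401 in shZDHHC20 (log2 fold change -0.72, adjusted p = 1.19e-06). LRP1, an endocytic receptor that clears thrombospondins and proteases, was at 2170.5, 2171 and 2146 in shControl and at 1450.0, 1414 and 1357 in shZDHHC20 (log2 fold change -0.62, adjusted p = 1.29e-05), and ITGA2, a collagen and laminin receptor chain, fell to 81.4% of control (log2 fold change -0.30, adjusted p = 0.00233). Among the 9 of these receptors with a mean of at least 100, 5 were called lower, 55.6%, beside 13.3% of all genes at that level.

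Proteoglycans carry glycosaminoglycan chains made by enzymes of the Golgi apparatus. Of 46 tested genes for the synthesis and sulfation of these chains, 2 were called higher and 6 lower (4.35% and 13%, beside 4.61% and 6.84% of all genes tested). Among the 34 with a mean of at least 100 the shares were 5.88% and 17.6%, beside 8.41% and 13.3% of all genes at that level. Without shZDHHC20 replicate 2, 4 of the 46 were called higher and 14 lower (8.7% and 30.4%, beside 8.55% and 10.7%). UGDH, which makes the UDP-glucuronate that enters every heparan, chondroitin and hyaluronan chain, was at 4031, 4092 and 4193 in shControl and at 2998, 2736 and 2694 in shZDHHC20 (log2 fold change -0.55, adjusted p = 2.7e-05). CHST11, a chondroitin sulfotransferase, was at 69.03% of control (log2 fold change -0.53, adjusted p = 3.93e-04), and NDST1, which begins the sulfation of heparan sulfate, at 79.9% (log2 fold change -0.33, adjusted p = 6.62e-04). CHST14 and CSGALNACT1, of the dermatan and chondroitin branch, were the pair called higher (log2 fold changes 0.28 and 0.27). Of 28 tested genes of glycosaminoglycan and proteoglycan turnover, 5 were called lower and 0 higher (17.9% and 0%, beside 6.84% and 4.61% of all genes tested). In the limma fit 8 of the 28 had an unadjusted p under 0.05 in either direction, beside 5286 of the 22189 genes tested. Without shZDHHC20 replicate 2, 6 were called lower and 0 higher. The 5 included the lysosomal sulfatases ARSB (log2 fold change -0.48, adjusted p = 0.00119) and SGSH (log2 fold change -0.39, adjusted p = 0.00690). The medians were -0.103 and -0.0595, beside 0.0132 over all genes tested.

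Of 16 genes for the glycosylation of dystroglycan, the modification through which it binds laminin and agrin, 2 were called higher and 3 lower (12.5% and 18.8%, beside 4.61% and 6.84% of all genes tested), with the same counts without shZDHHC20 replicate 2. Among the 13 with a mean of at least 100 the shares were 15.4% and 23.1%, beside 8.41% and 13.3%. POMGNT2 (log2 fold change -0.49, adjusted p = 0.00148) and B4GAT1 (log2 fold change -0.36, adjusted p = 0.00246), glycosyltransferases of that pathway, were lower, and DPM1, a subunit of the mannose donor synthase, was higher (log2 fold change 0.47, adjusted p = 0.00156). Dystroglycan itself, DAG1, was at 6997, 7153 and 7298 in shControl and at 6891, 6719 and 6850.0 in shZDHHC20 with no overlap and did not pass the test (adjusted p = 0.370). Of 64 tested other matrix genes, 4 were called higher and 15 lower (6.25% and 23.4%), with a median of -0.173, and without shZDHHC20 replicate 2 the counts were 4 and 16. Among the 30 with a mean of at least 100 the shares were 13.3% and 46.7%, beside 8.41% and 13.3% of all genes at that level. TGFBI, a secreted integrin ligand, was at 13021, 12867 and 13409 in shControl and at 7456, 7101 and 7537 in shZDHHC20 (log2 fold change -0.83, adjusted p = 4.36e-07). LGALS3BP, a secreted galectin-binding glycoprotein, was at 64.3% of control (log2 fold change -0.64, adjusted p = 2.69e-05), and CCN5, a matricellular protein, at 143% (log2 fold change 0.51, adjusted p = 1.16e-04).

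The summed level of the 43 members per exon length was 14330, 14250 and 14440 normalized counts per kb in shControl and 13640, 13880 and 13680 in shZDHHC20. The groups did not overlap, with means of 14340 ± 94.1 and 13730 ± 127, which is 95.8% of control. The normalized counts of the whole libraries were also lower in every silenced library, from 17962383 to 18007664 in shControl and from 17083277 to 17746705 in shZDHHC20, or 97.1% of control. Unlike the sum of the members, these library sums are not divided by length.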

How the data were processed

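RNA-seq of PANC-1 cells, 3 libraries each for shControl and shZDHHC20, was analysed from a single table. For each gene and library the authors deposited a normalized signal. Although the file is called FPKM, the values in a library are whole multiples of a step of 0.939 to 1.06 (100% within 0.05 of a multiple), which fits counts divided by 1 size factor per library and not by length. Columns carry the names siZDHHC20 and NC and were matched to the sample titles by group and replicate number. The submitters' processing notes name hg19, and the aligner and counting tool are not given in the sources used here. Absolute read depth was not derived from the steps, and counting intervals were not computed.

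Log2(value + 0.1) was tested with limma 3.58.1 in R 4.3.3 (lmFit with group, eBayes with a mean-variance trend, two-sided, Benjamini-Hochberg over the 22189 genes averaging 1 or more). On this scale, changes of low genes with values of 0 depend on the added constant. The log2 fold change of NID2 was -1.68 with 0.1, -0.71 with 1 and -2.77 with 0.01. The test had been planned for FPKM and was applied as planned. Errors are SDs over 3 libraries. Gene names matched for 27175 of 27394 identifiers, and lengths, positions and overlaps came from GENCODE 29 on GRCh38. Figures were drawn with matplotlib 3.10.9. The fit was tested on simulated data with known changes.

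The members, lists, tests and alternatives were chosen with earlier results of these data known. Library values are given for ZDHHC20, members with an adjusted p under 0.05, the member with the smallest p in each role, the 6 members highest per length and members that split from their family, with 3 genes of smallest adjusted p from each pathway list. Other settings tried were a replicate block, robust moderation, no mean-variance trend, quantile and median-ratio scaling, pseudocounts of 0.01 and 1, a minimum mean of 5 or none, and the omission of each library. Protein motifs were not analysed here, and a few genes are not reported here.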

Additional observations from a re-analysis of the deposited data

How the results depend on the processing

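The number of members called lower was 8 and became 4 under quantile normalization and 0 without the mean-variance trend in limma, where 8 were lower at an unadjusted p under 0.05, and the cause was not tested. Leaving out 1 library gave 3 to 11 lower and 1 to 3 higher. The number at the study's criteria was 1 and became 2 without a filter, 2 without the trend and 0 with an adjusted p under 0.01, and 0 to 1 with a library left out. Deviations from the group means were not positively correlated between same-numbered libraries (correlations -0.0518, -0.0562 and -0.0215). This cannot show whether the samples were paired, since variation of single genes between libraries can hide a shared effect. A replicate block gave 3 higher and 7 lower, with AGRN lost. Over all genes, the counts moved by more than 1.5 times without the trend (134 higher and 217 lower, from 1024 and 1517), and leaving out 1 library gave 384 to 1897 higher and 641 to 2371 lower. The silencing of ZDHHC20 kept its direction and call under each alternative run.

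Of the 11 called members, NID1 was called under all 15 alternatives, LAMB1 and SPARC under 14, HSPG2 and SDC4 under 12, SDC3 and TNC under 11, SPOCK1 under 10, LAMA5 under 9, EFEMP2 under 7 and AGRN under 5. Directions changed only for 10 members that were not called. Under quantile normalization the log2 fold changes of LAMB2, EFEMP1 and MFGE8 were 0.0029, 0.025 and 0.018. With 1 library left out, the log2 fold change ranged from -0.74 to 0.47 for LAMA1, -0.24 to 0.24 for LAMA2, -0.090 to 0.014 for LAMB2, -0.38 to 0.081 for LAMB3, -2.67 to 0.14 for NID2, -0.66 to 2.03 for FBLN2, -0.038 to 0.035 for EFEMP1, -0.21 to 0.75 for EMILIN1, -0.049 to 0.0024 for MFGE8 and -2.20 to 0.25 for VCAN. Of the other results for single genes and shares under the alternatives, 662 were counted as unchanged. For a gene this means the same direction and side of the threshold, and for a share a move smaller than the larger group SD. Of the rest, 45 lost a call, 5 gained one and 1 share, that of LAMA5, moved by more than that SD. The count-based alternatives (edgeR and DESeq2) were not run. Recovery of whole reads was not accepted for the shControl libraries, since their steps of 1.001 to 1.01 lie near 1. Members with a mean under 100 had wider intervals than most members above that level.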
